A study of Homo sapiens with 12 samples.

Results

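The replication-dependent histone genes are a set of 58 gene identifiers, out of 60708 features in the deposited tables, that was followed through an RNA immunoprecipitation sequencing (RIP-seq) experiment. The set was defined by gene class, as the linker histone H1 and core histone H2A, H2B, H3 and H4 genes of the clusters on chromosomes 6 and 1. All 58 were present in the tables. No measured value enters that definition, but the set was drawn up with earlier results of these data known, so every count over it is a description and none is a test of the set. The tables carry Ensembl identifiers without gene names, and 0 of the identifiers could be paired with a name here. Single genes are therefore called by identifier, and which of them encode H1, H2A, H2B, H3 or H4 is not stated.

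Histones are the proteins around which nuclear DNA is wound. The core histones H2A, H2B, H3 and H4 build the nucleosome, and the linker histone H1 binds where DNA enters and leaves it. Replication-dependent histone genes supply them while DNA is copied in S phase, and their mRNAs are the best known mRNAs of animal cells that normally end in a conserved stem-loop in place of a poly(A) tail. The stem-loop binding protein SLBP and the U7 small nuclear ribonucleoprotein direct the cut that makes this end, and SLBP then supports export, translation and timely decay of the mRNA. Some histone genes also give longer transcripts with a poly(A) tail, which have been described in differentiated and non-dividing cells.

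The cells were HK2, an immortalised line of human proximal tubule epithelium. In all 4 groups, controls included, they had been transfected with 10 µg of a plasmid that encodes human Arid5a with a FLAG tag. Arid5a is an RNA-binding protein of the ARID family known for binding and stabilising inflammatory mRNAs. Cells then received medium alone or IL-17, an inflammatory cytokine, at 200 ng/mL for 3 h. RNA was recovered from lysates by pulling down the FLAG tag; mouse IgG1 was used in its place as the background control. This gave 4 groups of 3 libraries: IgG with medium, FLAG with medium, IgG with IL-17 and FLAG with IL-17. FLAG against IgG asks which RNA came down with the tagged protein, and IL-17 against medium asks what the cytokine changed within 1 kind of precipitate. There was no input RNA among the samples analysed here, so the amount of histone mRNA in the cells and its recovery in the precipitate cannot be told apart. Whether replicates were separate cultures is not given in the labels, and p-values therefore reflect no more than the scatter among these libraries, which may be technical. The tagged gene and kidney epithelial markers were not checked here, since the identifiers could not be paired with names. Libraries were made with the SMART-Seq v4 kit, which starts reverse transcription from an oligo(dT) primer. RNA without a poly(A) stretch is therefore not the template that the kit is built for, and how this bears on the levels below was not tested.

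Depth differed widely. Total estimated counts ran from 746911 to 17723136 per library, with means of 3556170 ± 2694230 (SD, n = 3) in IgG with medium, 5427200 ± 2692820 in FLAG with medium, 10513200 ± 5238420 in IgG with IL-17 and 16342800 ± 2329350 in FLAG with IL-17. The IL-17 groups were thus the deeper ones. A total of 4 libraries stood apart. If each library were thinned to 740000 counts, IgG IL-17 replicate 1, IgG medium replicate 2 and FLAG medium replicate 1 would hold 32398, 25889 and 25373 features, against 10594 to 21424 in the others, and IgG medium replicate 1 was the shallowest. Results that rest on these libraries are also given without them. Histone genes with any count numbered from 48, in IgG medium replicate 1, to 58 of 58, and 47 of the 58 had a count in all 12 libraries. A count of 0 allows up to 4.02 CPM (counts scaled to the library total) in the shallowest library and up to 0.169 CPM in the deepest, at a floor of 3 counts that covers counting error only.

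Histone transcripts took between 0.385% and 1.50% of all counts in a library. On the length-scaled scale of TPM (transcript abundance scaled by length), which allows levels of different genes to be set side by side, the mean over the 12 libraries ran from 0.156 TPM for ENSG00000124610 to 158 TPM for ENSG00000287080, with a median of 27.0 TPM over the 58 genes. ENSG00000287080 ranged from 30.3 to 352 TPM, with a median of 139. It was followed by ENSG00000197903 with a mean of 153 TPM, ENSG00000272196 with 134 TPM and ENSG00000180596 with 132 TPM. The library-to-library range of each of these far exceeded the gaps between them, so their order does not hold beyond their spread. In IgG with medium ENSG00000287080 had a mean of 133.6 ± 126.5 TPM (SD, n = 3), and ENSG00000197903 had 149.2 ± 97.8 TPM. At the low end, ENSG00000124610 was listed at 0 in 5 libraries and was the only histone gene of the 58 that did not pass the filter on low counts. The other 57 were tested.

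**Figure D1:**
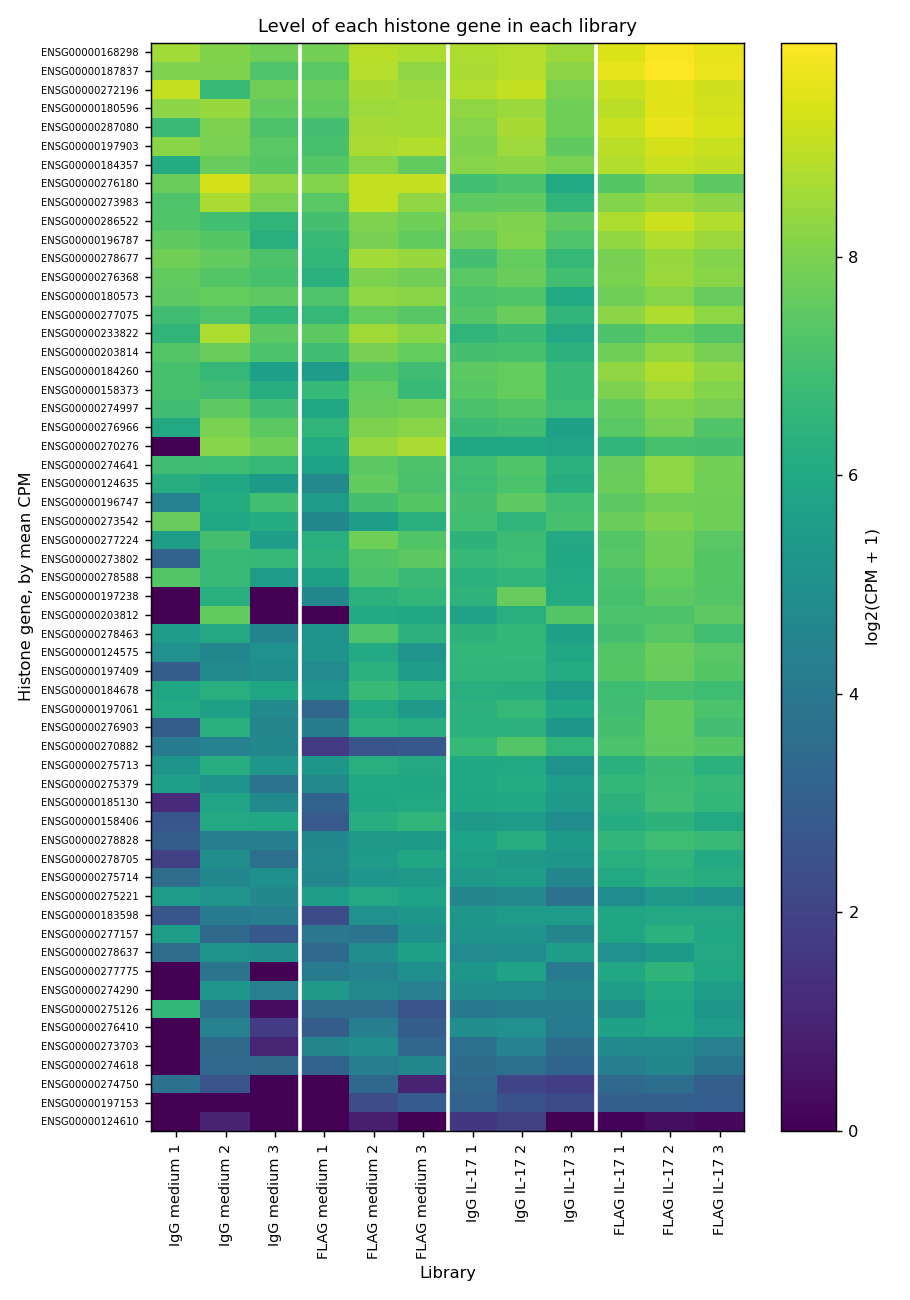
Level of each of the 58 histone genes (rows, ordered by mean CPM for display only, since CPM is not scaled by length) in each of the 12 libraries (columns), as log2(CPM + 1). White lines part the 4 groups; the right-hand block, FLAG with IL-17, is the brightest for most genes, and IgG medium replicate 1 has the most genes listed at 0, at 10 of 58.

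The summed level of the 58 genes was highest in FLAG with IL-17. In IgG with medium the sums were 5214, 7005 and 4527 CPM. In FLAG with medium they were 3849, 9654 and 8575 CPM. In IgG with IL-17 they were 6791, 7982 and 4922 CPM, and in FLAG with IL-17 they were 11024, 15029 and 12166 CPM. The 3 FLAG IL-17 libraries lay above all 9 others, and the other 3 groups overlapped one another. The group means were 5582 ± 1279, 7359 ± 3088, 6565 ± 1543 and 12740 ± 2063 CPM (SD, n = 3 each), in the same order. FLAG over IgG was 1.32 with medium and 1.94 with IL-17, and IL-17 over medium was 1.18 in IgG and 1.73 in FLAG precipitates.

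Part of this pattern depended on the scale. In TPM the FLAG IL-17 libraries held 3315, 3404 and 2112, within the 1351, 5539 and 2604 of FLAG with medium. FLAG over IgG with IL-17 was similar to the CPM ratio, at 1.80, although the libraries overlapped. IL-17 over medium turned to 0.652 in IgG and 0.930 in FLAG precipitates. A rise of the mean histone sum with IL-17 therefore appeared in CPM and not in TPM, while the higher mean sum in FLAG than in IgG appeared on both scales. With medium the FLAG over IgG ratio in TPM was 1.26, and the libraries overlapped on both scales.

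**Figure D2:**
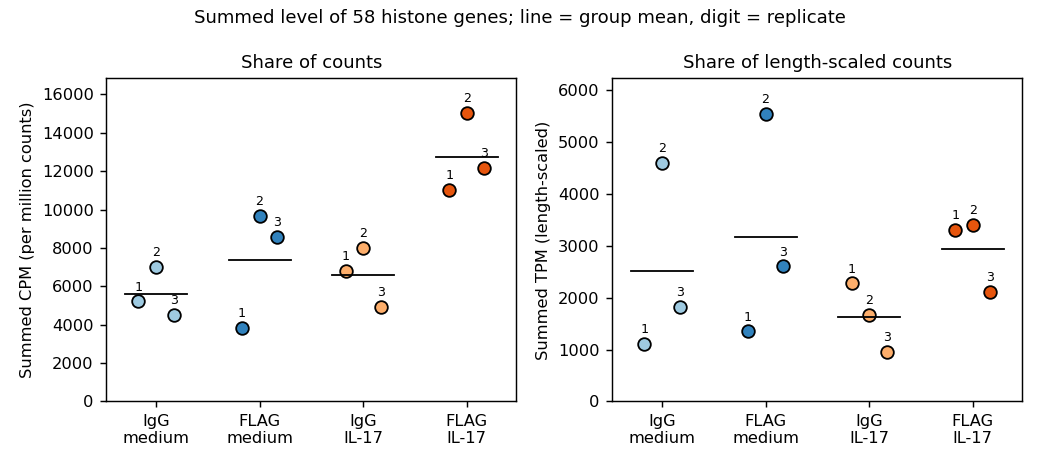
Summed level of the 58 histone genes in each library (points, numbered by replicate) with the group mean (line), in CPM on the left and TPM on the right. In CPM the 3 FLAG IL-17 libraries, at 11024 to 15029, lie above all the others; in TPM they lie between 2112 and 3404, inside the range of the medium libraries.

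With IL-17, histone genes were higher in FLAG than in IgG precipitates without exception among those tested. All 57 had a log2 fold change above 0, where 39.8% of all 24040 tested features did. Their median was 1.27, with a range of 0.64 to 1.53, beside a median of -0.33 over all features. For 49 of the 57 the 3 FLAG libraries lay above the 3 IgG libraries in CPM, and for none below; among all features these shares were 3.58% and 11.6%. The range of the 57 values was narrow, so no histone gene stood out from the rest in this comparison.

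No single gene passed the test here. In edgeR's quasi-likelihood test with Benjamini-Hochberg adjustment over all features, 0 of 57 were called (adjusted p under 0.05), as were 0% of all features, and the smallest adjusted p of a histone gene was 0.923. At an unadjusted p under 0.05 there were 28 histone genes higher and 0 lower, against 0.566% and 2.25% of features. DESeq2 and limma on log2(TPM + 1) also called 0 (0.0468% and 0.00416% of features). The 28 became 9 with library size only, 10 with upper-quartile factors and 51 with only the groups compared. They also rested on single libraries, with 0 left without IgG IL-17 replicate 1, and 8 left when IgG IL-17 replicate 3 was left out and also when FLAG IL-17 replicate 2 was. There were 10 without FLAG IL-17 replicate 3, 45 when IgG medium replicate 1 was left out and 43 when FLAG medium replicate 1 was. The direction was kept more widely. At least 56 of 57 or 58 tested genes were above 0 in each fit that left out a single library, and all 57 were without the 3 feature-rich libraries, where 51 of 57 had FLAG libraries above all IgG libraries and none below (11.2% and 12.3% of features). In limma on log2(TPM + 1) all 57 were above 0 as well, with a median of 0.84, but 0 had an unadjusted p under 0.05, and in TPM the FLAG libraries lay above the IgG libraries for 10 and below for none (0.341% and 6.07% of features).

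Values of single genes show the same size of difference. ENSG00000187837 stood at 411, 457 and 302 CPM in IgG with IL-17, and at 761, 996 and 816 CPM in FLAG with IL-17. The FLAG libraries all lay above the IgG libraries, with a log2 fold change of 1.42 ± 0.596 (SE) and an edgeR adjusted p of 0.923. ENSG00000168298 stood at 425, 460 and 355 CPM in IgG and at 699, 932 and 761 CPM in FLAG precipitates. Again the groups did not overlap, at 1.22 ± 0.600 with an edgeR adjusted p of 0.923. The highest fold change belonged to ENSG00000275126, with 15.5, 17.3 and 17.2 CPM in IgG and 29.3, 56.6 and 37.3 CPM in FLAG. The lowest was 0.64 ± 0.934, for ENSG00000197238. That gene is discussed below with the gene it shares reads with.

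With medium alone, the place of the histone genes among all features depended on the scale and on the libraries kept. Of the 57, 38 had a log2 fold change of FLAG over IgG above 0, where 58.4% of all features did, and their median of 0.19 lay at the median of 0.20 over all features. In edgeR 0 were called, as were 0% of features, with a smallest adjusted p of 0.686. DESeq2 called 2 (1.19% of features) and limma on log2(TPM + 1) called 0 (0%), and edgeR without IgG medium replicate 2 called 2 (0.0329%). An unadjusted p under 0.05 was reached by 4 genes upward and 3 downward (4.17% and 2.4% of features), and libraries did not overlap for 4 higher and 1 lower (4.87% and 0.749%). The direction of the median turned with the scaling, from 0.42 with library size only (0.37 over all features) to -0.11 with upper-quartile factors (0.11). In limma on log2(TPM + 1) 51 of 57 were above 0, with a median of 0.50 beside 0.11 over all features.

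The medium comparison also turned on which libraries were kept. Without IgG medium replicate 1 the histone median was 0.46 beside 0.09 over all features, with 51 of 58 above 0. Without FLAG medium replicate 1 it was 0.53 beside 0.02, and 12 genes were higher at an unadjusted p under 0.05, as were 8 without IgG medium replicate 2; without FLAG medium replicate 3 the median was -0.06 beside 0.40. Without the 3 feature-rich libraries, 46 of 57 genes had FLAG libraries above the IgG libraries, but so did 33.4% of all features, 2 libraries being left a group. There 1 gene lay the other way (2.72% of features), and the histone median was 0.48 beside 0.60 over all features. When IgG medium replicate 1 was dropped too, a single IgG library was left, taken to vary like the other groups. In that fit 19 of 58 histone genes and 4.28% of all features were called, and the histone median of 1.02 lay below the median of 1.60 over all features.

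The extreme values in medium belonged to genes with few counts. ENSG00000197153 was at 0 in all 3 IgG medium libraries, at 0, 4.10 and 6.49 CPM in FLAG with medium, at 8.01, 4.74 and 3.73 CPM in IgG with IL-17, and at 7.28, 7.25 and 6.85 CPM in FLAG with IL-17. Its fitted log2 fold changes against the group at 0, 7.81 for FLAG over IgG in medium and 8.50 for IL-17 over medium in IgG, depend on the prior count and are no measure of size. Neither passed, with edgeR adjusted p of 0.757 and 0.478. ENSG00000275126 had 95.1, 12.3 and 0.26 CPM in IgG with medium, and 10.8, 10.7 and 5.07 CPM in FLAG with medium. The IgG values spanned the FLAG values, and the log2 fold change of -2.83 ± 1.01 became 0.57 without IgG medium replicate 1, the library at 95.1 CPM.

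Whether the FLAG over IgG ratio itself changed with IL-17 was tested as a difference of the differences. Of the 57 genes 50 lay above 0, a higher ratio with IL-17, where 39.1% of features did, and the median was 1.02 beside -0.52 over all features. This contrast uses the same libraries as both FLAG over IgG comparisons, so it is not separate evidence. In edgeR 0 genes and 0% of features were called, with a smallest histone adjusted p of 0.664; an unadjusted p under 0.05 was reached by 6 upward and 1 downward (1.07% and 6.28% of features). DESeq2 called 1 (0.766% of features) and limma 0 (0%). The 6 ranged from 3, when replicate 1 of IgG IL-17, of IgG medium or of FLAG medium, or replicate 2 of FLAG IL-17, was left out, to 13 without IgG medium replicate 3. The count above 0 fell to 37 of 57 without the 3 feature-rich libraries, where the median was 0.42 beside -0.59 over all features. It fell to 25 of 58, with a median of -0.15 beside -2.17, when the shallowest was dropped as well; the histone median then lay below 0 but further above that of all features. The extremes were ENSG00000275126 at 4.36 and ENSG00000197153 at -7.06, both with the sparse values in medium given above.

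**Figure D3:**
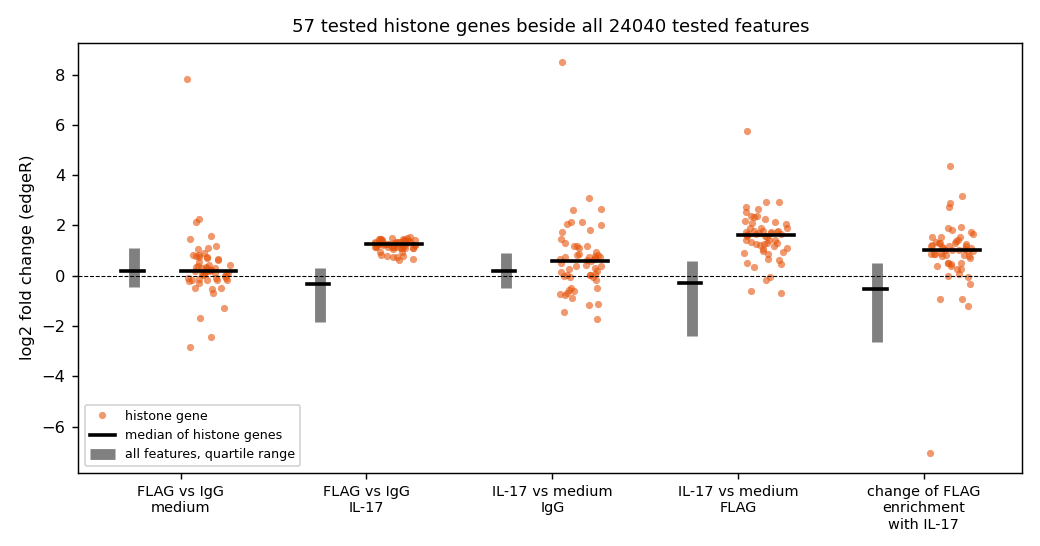
Log2 fold changes from edgeR for the 57 tested histone genes (points, spread sideways for display) with their median (line), beside the quartile range (grey bar) and median (line on the bar) of all 24040 tested features, for each of the 5 comparisons. With IL-17, the FLAG over IgG values are the most tightly packed, between 0.64 and 1.53, and lie above the upper quartile of all features; with medium their median of 0.19 falls on that of all features.

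IL-17 against medium in FLAG precipitates gave the most histone genes past a threshold. Of the 57, 53 had a log2 fold change above 0 (43.7% of features), with a median of 1.61 beside -0.29 over all features. Libraries did not overlap for 37 higher and 2 lower in CPM (3.29% and 15.7% of features), and an unadjusted p under 0.05 was reached by 37 upward and 0 downward (3.05% and 7.86%). At an edgeR adjusted p under 0.05, 2 genes were called higher and none lower, against 0.22% and 0.00416% of features. With IgG medium replicate 1 left out 7 were called (0.312% of features), and with its replicate 3 left out 4 (0.327%). The 37 at an unadjusted p under 0.05 became 22 without FLAG IL-17 replicate 3. Upward and downward counts were 19 and 1 with library size only, and 1 and 2 in limma on log2(TPM + 1). Without the 3 feature-rich libraries they were 28 and 1, and libraries in CPM did not overlap for 37 higher and 6 lower (7.34% and 23.7% of features). The IL-17 libraries were the deeper ones, and the part of depth in the result was not tested. In TPM 36 of 57 genes lay above 0 in limma on log2(TPM + 1), with a median of 0.18 beside -0.45 over all features. There libraries did not overlap for 2 higher and 3 lower, against 0.749% and 24.6% of features.

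Of the called genes, ENSG00000124575 rose from 33.3, 66.2 and 35.5 CPM in FLAG with medium to 158, 213 and 171 CPM in FLAG with IL-17. All 3 IL-17 libraries lay above all 3 medium libraries. Its log2 fold change was 2.66 ± 0.563 with an edgeR adjusted p of 0.0320. In IgG precipitates it stood at 32.1, 22.6 and 31.6 CPM with medium and at 96.9, 95.7 and 60.7 CPM with IL-17. The libraries did not overlap there either, but the log2 fold change of 1.47 ± 0.556 was not called, with an edgeR adjusted p of 0.854. The call in FLAG precipitates held in 12 of 25 alternatives, over which the adjusted p ran up to 0.520. It was lost without each of IgG IL-17 replicate 2, FLAG IL-17 replicates 2 and 3 and FLAG medium replicates 1, 2 and 3, where the adjusted p lay between 0.0511 and 0.291.

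The other called gene, ENSG00000270882, was at 2.23, 5.08 and 5.70 CPM in FLAG with medium and at 140, 186 and 160 CPM in FLAG with IL-17. The log2 fold change was 5.77 ± 0.676 with an edgeR adjusted p of 5.72e-05, and it was called in all 24 alternatives that gave it a value, with adjusted p up to 0.0107. In IgG precipitates it went from 16.1, 20.3 and 23.5 CPM with medium to 101, 156 and 90.3 CPM with IL-17, at 2.61 ± 0.593 and an edgeR adjusted p of 0.218. On its own this was the largest difference of any histone gene between the FLAG groups.

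That difference was not seen when reads shared with another histone gene were counted together. Estimated counts need not be whole, because a read that fits several genes is divided among them. The part counts of ENSG00000270882 and ENSG00000270276 added up to a whole number in every library, as in FLAG IL-17 replicate 1, where 2485.28 and 1620.72 made 4106. ENSG00000270882 held 54.9% to 71.9% of the pair's counts in the 6 IL-17 libraries and 1.35% to 9.89% in 5 of the 6 medium libraries. In the sixth, IgG medium replicate 1, it held all of a mere 12 counts.

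The sum of the pair was 71.6, 337 and 423 CPM in FLAG with medium and 232, 317 and 290 CPM in FLAG with IL-17. The medium libraries spanned the IL-17 libraries. In IgG precipitates the sum was 16.1, 307 and 237 CPM with medium and 163, 217 and 146 CPM with IL-17, again with overlap. Fitted as 1 feature, the pair had a log2 fold change with IL-17 of 0.48 ± 0.659 in FLAG precipitates, with an edgeR adjusted p of 0.728. ENSG00000270276 alone fell on the other side of 0, at -0.67 ± 0.826 (adjusted p of 0.696), from 69.4, 332 and 417 CPM to 91.4, 131 and 131 CPM. How the reads were divided between the pair thus differed between medium and IL-17 libraries, and their total did not pass the test.

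**Figure D4:**
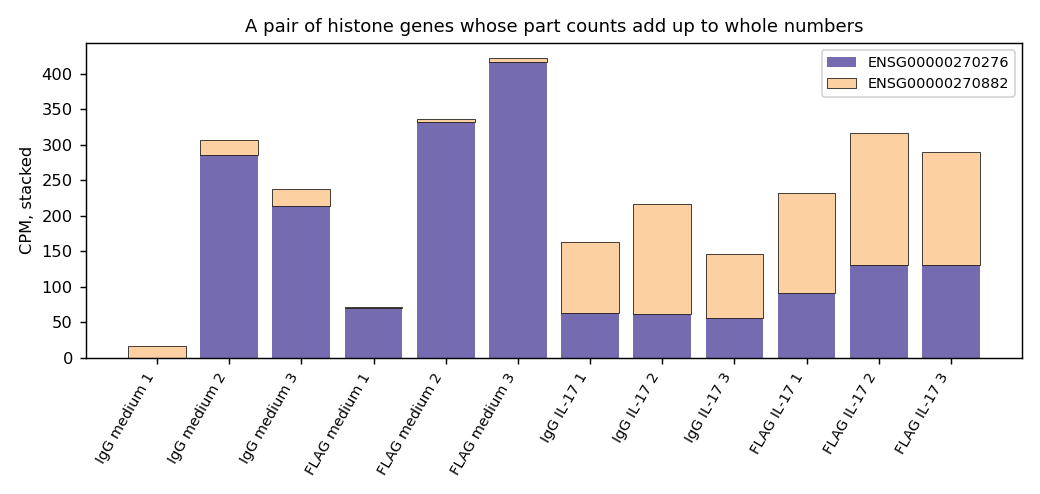
CPM of ENSG00000270276 and ENSG00000270882, stacked, in each of the 12 libraries. The share of ENSG00000270882 is 1.35% to 9.89% in 5 medium libraries and 54.9% to 71.9% in the 6 IL-17 libraries, while the height of the whole bar overlaps between medium and IL-17.

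Read sharing touched other histone genes too. Part counts occurred in 25 of the 58 genes, and 29.7% of the histone values were not whole, against 18.0% of the values of all features. Of 18 histone genes with enough part counts to search, 9 fell into 3 pairs and 1 triple whose counts added up to whole numbers within 0.01 or 0.015. The triple of ENSG00000184260, ENSG00000203812 and ENSG00000272196 summed to 441 ± 203 CPM (SD, n = 3) in IgG with medium, 469 ± 193 CPM in FLAG with medium, 660 ± 140 CPM in IgG with IL-17 and 1145 ± 152 CPM in FLAG with IL-17. Its log2 fold change with IL-17 in FLAG precipitates was 1.79 ± 0.594, with an edgeR adjusted p of 0.439. The pair of ENSG00000197238 and ENSG00000273542 had 2.17 ± 0.613 with an adjusted p of 0.350, and that of ENSG00000196747 and ENSG00000276368 had 1.26 ± 0.529 with an adjusted p of 0.439. For these 3 sets the sum kept the direction of the other histone genes. Among the 32 tested genes whose counts were whole in every library, 31 were above 0 for IL-17 in FLAG precipitates, with a median of 1.69, and 32 of 32 for FLAG over IgG with IL-17, with a median of 1.27.

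In IgG precipitates the histone genes moved less evenly with IL-17. Of the 57, 42 lay above 0 (57.2% of features), with a median of 0.59 beside 0.18 over all features. Libraries did not overlap for 13 higher and 3 lower (7.23% and 2.03% of features). In edgeR 0 were called, against 0.0125% of features higher and 0% lower; an unadjusted p under 0.05 was reached by 12 upward and 2 downward (3.79% and 1.78%). DESeq2 called 6 (1.98% of features) and limma 0 (0.0125%). With IgG medium replicate 2 left out edgeR called 2 (0.0293%), or 1 when replicate 1 of FLAG medium was (0.0514%). Without IgG medium replicate 2 the histone median of 0.54 lay below the 1.67 over all features. Without the 3 feature-rich libraries it was 0.67 beside 0.71. There libraries did not overlap for 22 genes higher and 3 lower (34.5% and 5.67% of features), 2 libraries being left a group. When IgG medium replicate 1 was dropped too, the histone median was 1.38 beside 2.17. In limma on log2(TPM + 1) the histone median changed sign, to -0.10, with 23 of 57 above 0. It still lay above the median of -0.21 over all features on that scale. The smallest fold change was that of ENSG00000276180, which stood at 208, 635 and 319 CPM with medium and at 122, 141 and 64.5 CPM with IL-17. Its medium libraries all lay above its IL-17 libraries, at -1.71 ± 0.556, but the edgeR adjusted p was 0.689. The values in FLAG precipitates were 279, 526 and 521 CPM with medium and 161, 239 and 176 CPM with IL-17, at -0.62 ± 0.542 with an adjusted p of 0.586.

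The values for IL-17 can also be set out by apparent transcript length. Dividing a gene's estimated count by its TPM gives its apparent effective length, up to a factor for each library. Most histone genes were short, as is known of these intronless genes. Their median was 0.194 of the median of all features, and 4.58% of 28163 features were shorter than that. The genes were divided at 0.4, between neighbours at 0.369 and 0.446, with wider gaps further up the range. The length used was each gene's median over the libraries that had a value, medium and IL-17 together. The 14 longer genes had a median of 0.736 and the 44 shorter ones 0.187. The shorter group includes ENSG00000180573, ENSG00000270882 and ENSG00000158406, whose apparent length was longer in medium than with IL-17, as given below. This division was made after the values were seen, so no test is given.

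The 14 longer genes had a median log2 fold change with IL-17 of -0.30 in IgG precipitates, with 6 of 14 above 0, where the 43 shorter tested genes had 0.74, with 36 of 43 above 0. In FLAG precipitates the medians were 1.04 for the longer genes and 1.70 for the shorter, and the ranges of -0.67 to 2.13 and -0.05 to 5.77 overlapped widely. The longer group holds ENSG00000270276 and the shorter ENSG00000270882, the pair that shares reads. Without this pair the medians were -0.04 and 0.73 in IgG, and 1.10 and 1.70 in FLAG precipitates. FLAG over IgG with IL-17 had medians of 1.25 and 1.27.

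The share of histone counts that fell on the 14 longer genes was higher in 5 of the 6 medium libraries than in every IL-17 library, with either antibody. It was 40.1% and 35.7% in IgG medium replicates 2 and 3, and 33.5%, 32.4% and 32.5% in FLAG with medium. It was 19.7%, 18.9% and 17.1% in IgG with IL-17, and 18.8%, 19.0% and 18.1% in FLAG with IL-17. The exception was IgG medium replicate 1, the shallowest library, at 19.5%, within the range of the IL-17 libraries. Without the pair that shares reads, the mean share was 30.0% in IgG and 30.5% in FLAG with medium, and 18.1% in each IL-17 group. With the length division at 1, which leaves 4 longer genes, the shares of 7.58% to 10.3% with medium overlapped those of 6.46% to 7.67% with IL-17. In CPM the longer genes were at 2404 ± 980 CPM in FLAG with medium and 2378 ± 414 CPM in FLAG with IL-17, while the shorter genes were at 4956 ± 2108 and 10362 ± 1653 CPM (SD, n = 3 each). The medium and IL-17 libraries overlapped for the longer genes and did not for the shorter ones. In IgG the longer genes were at 1814 ± 911 CPM with medium and 1229 ± 346 CPM with IL-17, and the shorter at 3768 ± 741 and 5336 ± 1202 CPM, with overlap in both.

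Apparent length was also followed within single genes. Lengths were set relative to the median of the 34 histone genes that could be measured in every library. For most of the 57 genes measured in at least 8 libraries this value was stable, with a median ratio of the highest to the lowest library of 1.10, and 7 had a ratio over 1.5. For 21 of the 57 the medium and IL-17 libraries that had a value did not overlap. All of the 21 but ENSG00000180573 lacked a value in IgG medium replicate 1, the shallowest library. Of the 34 genes measured in every library, ENSG00000180573 alone had medium and IL-17 libraries apart. The share of all features without overlap in length was not computed. In 12 of the 21 the medium libraries were shorter, with a ratio of the means of 0.919 to 0.992. In the other 9 they were longer, 5 of them with a ratio of 1.01 to 1.12 and 4 with a ratio over 1.5, up to 4.98. Those 12 genes had lengths of 0.122 to 0.193 of the median of all features, and those 5 had 0.224 to 0.807. The small ratios thus went with gene length, and their cause was not tested. The 3 genes described next with a shift are from the 4 with a ratio over 1.5. The fourth, ENSG00000274750, had only 2 medium libraries with enough counts. ENSG00000187837, one of the stable ones, stayed between 1.57 and 1.72 in all 12 libraries. ENSG00000180573 had 2.36, 2.90 and 2.64 in IgG with medium and 2.37, 2.17 and 2.16 in FLAG with medium, against 1.19, 1.09 and 1.09 in IgG with IL-17 and 1.14, 1.17 and 1.16 in FLAG with IL-17. The 6 medium libraries all lay above the 6 IL-17 libraries, with means of 2.44 ± 0.289 and 1.14 ± 0.041 (SD, n = 6 each), whichever the antibody and including the 4 libraries that stood apart.

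ENSG00000270882 showed a like shift, from 2.39 ± 0.037 in the 4 medium libraries with enough counts to 1.20 ± 0.019 in the 6 IL-17 libraries. ENSG00000158406 went from 4.19 ± 1.78 in 4 medium libraries to 0.841 ± 0.045 in the 6 IL-17 libraries, also without overlap. RSEM, one of the tools named by the submitters, gives a gene the mean effective length of its annotated transcripts weighted by their estimated abundance. The value can shift when those weights do, and what shifted it here was not tested. For ENSG00000180573 the count itself differed less. It was 178, 196 and 180 CPM in IgG with medium and 141, 153 and 67.1 CPM with IL-17, and 147, 307 and 288 CPM in FLAG with medium and 215, 283 and 201 CPM with IL-17. In FLAG precipitates the libraries overlapped, at a log2 fold change of 0.48 ± 0.542 with an edgeR adjusted p of 0.666. Depth also differed between the treatments, and its part in the length estimates was not tested.

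**Figure D5:**
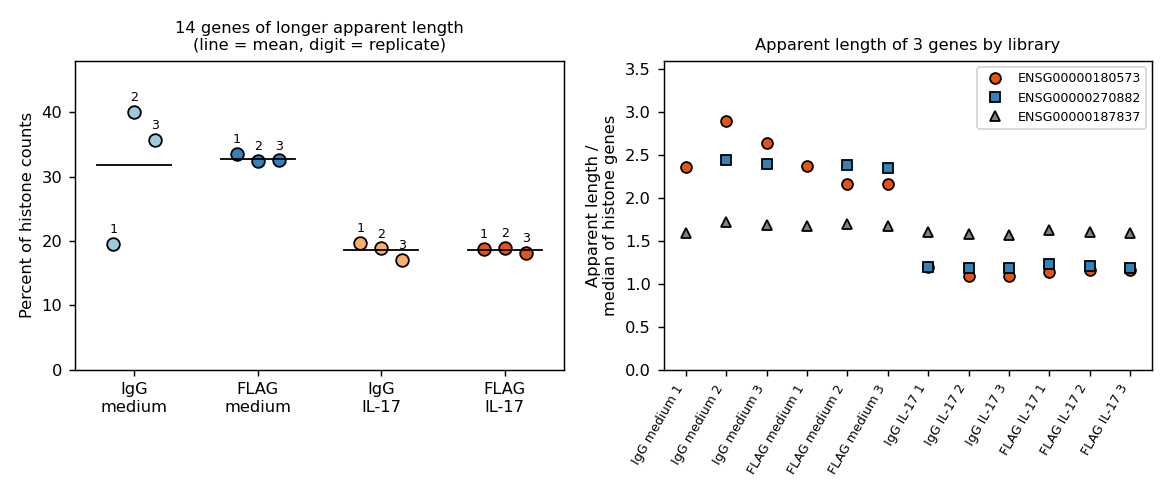
Left, percent of histone counts that fell on the 14 genes of longer apparent length, by library (points, numbered by replicate) with group means (lines). Right, apparent length of 3 histone genes relative to the median of the histone genes, by library (points; libraries with too few counts are left out). The medium libraries lie at 32.4% to 40.1% on the left, apart from IgG medium replicate 1 at 19.5%, and the IL-17 libraries at 17.1% to 19.7%; on the right, ENSG00000180573 and ENSG00000270882 are longer in medium than in IL-17 libraries and ENSG00000187837 is not.

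The spread between replicates differed between groups. The median coefficient of variation of the histone genes in CPM was 0.501 in IgG with medium, 0.495 in FLAG with medium, 0.293 in IgG with IL-17 and 0.178 in FLAG with IL-17. For genes with a mean of at least 5 CPM the histone median lay below that of all features in each group, at 0.492 beside 0.866, 0.484 beside 0.590, 0.286 beside 0.301 and 0.178 beside 0.267. The histone genes and the features were not matched for level. The median histone gene had a mean of 101 CPM over the 12 libraries, and the part of level in this difference was not tested. The profile over the 58 genes was also more alike between replicates in the groups of greater mean depth. Pearson's r between replicates, across genes that share a library and are not independent, ran from 0.615 to 0.799 in IgG with medium, 0.845 to 0.956 in FLAG with medium, 0.950 to 0.980 in IgG with IL-17 and 0.992 to 0.996 in FLAG with IL-17. Histone genes thus varied least between the FLAG libraries with IL-17, the deepest group. Their coefficient of variation was nearly the same in IgG and FLAG with medium, and their profile was least alike in IgG with medium, the shallowest group. Depth went together with antibody and treatment, and its part was not tested.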

How the data were processed

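RNA from FLAG or IgG precipitates of 12 HK2 samples was sequenced. The authors deposited a table of estimated counts per gene and a table of TPM, both with Ensembl identifiers. The second table is named for FPKM, but each column sums to the same total, the one TPM is scaled to. Tools listed in the submitters' processing notes are RSEM 1.3.1, STAR 2.7.9, R 4.2.0 and DESeq2 1.36.0, with the build GRCh38 (hg38). Their settings are not given in the sources used.

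Estimated counts were rounded to whole numbers and fitted with edgeR 4.0.16 in R 4.3.3 (quasi-likelihood test, TMM factors, which ran from 0.614 to 1.55, and a filter on a minimum count of 10) in 1 model of 4 groups over 12 libraries. The Benjamini-Hochberg adjustment ran over all 24040 tested features, and only histone genes are printed. A gene was called at an adjusted p under 0.05. The common dispersion was 0.953. CPM is the estimated count over the library total. Fits were first run on simulated counts at dispersions of 0.1 and 1. Recovery of changed features was required only at 0.1, below the dispersion of these data, so the power of the fits here was not established. Alternatives were other scaling factors, other filters, DESeq2 1.42.0, limma 3.58.1 on log2 TPM with a pseudocount of 1 or 0.1, a replicate block, only the groups compared, and leaving out each library. Chosen after seeing the data were leaving out 3 or 4 libraries that stood apart, summing genes that share reads, keeping only genes with whole counts, and other divisions by length.

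Apparent length is the estimated count over TPM, where the count was at least 20 and the TPM at least 0.2, and genes were divided at 0.4. The histone genes and all lists were chosen with earlier results of these data known. Named were genes called in a comparison and those with its largest or smallest fold change; others were chosen after their values were seen. The top 3 genes of each histone class could not be named, because identifiers matched no name, and the lists of histone variants, processing factors, S phase genes, other RNAs and cell markers were not analysed here for the same reason.

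Same-numbered replicates were checked for pairing by the correlation of their deviations from the group means. Over 18 pairs it ran from -0.232 to 0.458, so the numbers were not taken to pair the samples.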

Additional observations from a re-analysis of the deposited data

How the results depend on the processing

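Percentages are the share of all tested features called in the same fit. FLAG over IgG with IL-17 had 0 called histone genes under every alternative run. For FLAG over IgG in medium (0 called) there was 1 without a filter (0.0992%), 2 with DESeq2 (1.19%) and 19 without the 4 libraries that stood apart (4.28%), with 0 to 2 when single libraries were left out. For IL-17 in IgG (0 called) there was 1 with RLE factors (0.0374%), 3 without a filter (0.143%), 6 with DESeq2 (1.98%), 2 without the 3 feature-rich libraries (0.0138%), 30 without those and the shallowest (5.65%), and 0 to 2 without single libraries. For IL-17 in FLAG (2 called) there was 1 with RLE factors (0.0208%), library size only (0.158%), upper-quartile factors (0.0291%), a filter of 50 counts (0.0377%), limma with either pseudocount (0.025%), without the 3 feature-rich libraries (0.00918%), with sharing genes summed (0.204%) and with whole-count genes only (0.225%). There were 10 without a filter (0.471%), 14 with DESeq2 (5.17%), 4 with only the groups compared (0.386%) and 31 without the 4 libraries (2.26%), with 1 to 7 without single libraries: 7 without IgG medium replicate 1 and 4 without IgG medium replicate 3. For the change of enrichment (0 called) there was 1 without a filter (0.031%), 1 with DESeq2 (0.766%) and 5 without the 4 libraries (2.31%), 4 of them lower, and 0 in each fit without a single library. The cause was not tested.

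The replicate block gave 2 called genes for IL-17 in IgG (0.137%) and 8 for IL-17 in FLAG (0.566%), and 0 in the other comparisons. Same-numbered samples deviated together, with a correlation over 0.1, in 8 of 18 pairs. In 8 pairs the sample of the first group matched its own number best in the second group. Whether the match was mutual was not checked.

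Summed levels, which were 5582, 7359, 6565 and 12740 CPM, became 2507, 3165, 1633 and 2944 in TPM, another unit. Without the 10 most abundant features in the total they became 7494 in IgG with medium, 8914 in FLAG with medium, 8618 in IgG with IL-17 and 16600 in FLAG with IL-17. Without single libraries the means ran from 4871 to 6110, 6212 to 9115, 5856 to 7386 and 11600 to 13600 CPM. The log2 fold change of ENSG00000275126 in medium, -2.83, ran from -3.36 to 0.57 without single libraries, the latter without IgG medium replicate 1. It turned to 0.27 in limma on log2(TPM + 0.1) and 4.79 without the 4 libraries, where its change of enrichment, 4.36, turned to -3.53. Upper-quartile factors moved the median of all features in medium from 0.20 to 0.11, and library size only moved that for IL-17 in FLAG from -0.29 to -0.92, with 50 of 57 histone genes above 0. No gene pair had identical rounded counts, so copies could not be removed, and the change of enrichment has no fit on fewer groups. Depth limits IgG with medium most.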
